A study of Mus musculus with 6 samples.

Results

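The genes described here are 34 genes of the interstitial matrix: fibrillar and other collagens, adhesive glycoproteins, genes of elastic fibres with the fibulins, lysyl oxidases and proteoglycans. They were chosen by family, and each was read from the probe set that names its symbol alone and has the highest mean log2 signal. Of the 34, 32 had such a probe set among 18194 genes in all, and 29 passed the filter on low signals that left 10916 genes for testing. Fbn1 and Loxl2 were not analysed here, and Col5a3, Mfap5 and Fmod had values but were too dim to be tested.

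Messenger RNA was measured on 6 single-colour Affymetrix mouse arrays from tumour cells of the ovarian surface epithelium, 2 arrays per group. All 6 samples are titled P/K OSE cells, a prefix that the labels do not spell out and that every group shares. The groups were homozygous for the R172H mutation of p53 (taken at 4 and 4 weeks of age), heterozygous for it (9 and 12 weeks) and wild type for p53 (9 and 9 weeks), all of mixed background strain. Because both homozygous samples were taken at 4 weeks and no other before 9 weeks, age and homozygosity cannot be told apart. Per the labels the cells were trypsinised and put in culture, and RNA was taken before any passage. The source field of the homozygous samples names another gene of the p53 family, and the titles were followed. Apart from the different ages of the heterozygous samples, the labels do not say whether arrays came from separate animals, so p-values measure only the spread between these samples, which may be technical. In bulk RNA, fewer cells of a type and less RNA per cell cannot be told apart.

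Fibrillar collagens form the tensile fibrils of connective tissue. They are secreted as procollagens, trimmed, assembled with minor collagens and small leucine-rich proteoglycans on their surface, and covalently crosslinked by lysyl oxidases. Elastin is laid on microfibrils with the help of fibulins, and fibronectin, tenascin and the thrombospondins link this scaffold to cell receptors. In the ovary most of this matrix is attributed to stromal fibroblasts, and cultured surface epithelial cells are known to make part of it as well.

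The 2 homozygous arrays were unlike each other in these genes. In 8 of the 29 tested genes, homozygous array 1 lay below all 4 heterozygous and wild-type arrays while homozygous array 2 lay above all 4, a pattern found in 4.34% of all tested genes. These 8 were the collagens Col1a1, Col3a1 and Col6a3, the glycoproteins Postn, Tnc and Crispld2, the lysyl oxidase Lox and the proteoglycan Lum. None of the 29 had the reverse pattern, which 2.99% of all tested genes had. At least 2-fold more signal in homozygous array 2 than in homozygous array 1 was measured in 21 of the 29 (14% of all tested genes), and at least 2-fold more in array 1 in only 3, Col11a1, Vcan and Efemp1 (6.09%). In 5 genes (Col1a2, Col5a1, Fn1, Thbs1 and Fbln2) both homozygous arrays were above the 4 others (23.4% of all tested genes). In 6 of the 29 (Col6a1, Col6a2, Sparc, Fbln1, Eln and Loxl1) both were below them (28.9%), as they were for the untested Col5a3, Mfap5 and Fmod. Taken singly, homozygous array 1 was below the 4 others in 19 of the 29 (43.9% of all tested genes) and above them in 7 (34.2%), and homozygous array 2 was above them in 15 (32.3%) and below them in 7 (36.7%).

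The upstream sequences of 5 of these genes are shown, since their signals carry both patterns: Crispld2, Col3a1, Postn and Tnc have the largest excess of homozygous array 2 over array 1 among genes with a promoter in the table used, and Col1a2 was high in both. Each is the 250 bases before the annotated start, read 5′ to 3′ along the gene's strand, from RefSeq on GRCm38.p6.
Crispld2, chr8:119992188-119992437, plus strand: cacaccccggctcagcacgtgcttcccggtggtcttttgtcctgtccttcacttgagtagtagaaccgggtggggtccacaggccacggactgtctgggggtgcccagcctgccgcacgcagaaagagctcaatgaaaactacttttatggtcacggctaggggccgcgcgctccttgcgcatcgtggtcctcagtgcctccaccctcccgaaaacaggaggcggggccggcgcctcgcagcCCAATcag
Col3a1, chr1:45311288-45311537, plus strand: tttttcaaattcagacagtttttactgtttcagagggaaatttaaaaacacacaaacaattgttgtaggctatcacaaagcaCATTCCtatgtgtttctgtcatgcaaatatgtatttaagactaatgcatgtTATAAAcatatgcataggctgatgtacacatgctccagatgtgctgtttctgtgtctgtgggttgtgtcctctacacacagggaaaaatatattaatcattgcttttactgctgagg
Postn, chr3:54359017-54359266, plus strand: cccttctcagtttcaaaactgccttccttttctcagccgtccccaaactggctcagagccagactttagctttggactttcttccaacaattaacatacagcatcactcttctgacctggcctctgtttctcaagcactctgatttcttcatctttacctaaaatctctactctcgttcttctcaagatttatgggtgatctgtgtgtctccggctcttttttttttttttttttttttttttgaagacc
Tnc, chr4:64047016-64047265, minus strand: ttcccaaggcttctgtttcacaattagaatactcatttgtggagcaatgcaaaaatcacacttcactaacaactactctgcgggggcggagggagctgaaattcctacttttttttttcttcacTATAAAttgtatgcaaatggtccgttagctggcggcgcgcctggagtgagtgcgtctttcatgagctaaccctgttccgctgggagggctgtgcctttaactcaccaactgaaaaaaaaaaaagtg
Col1a2, chr6:4505368-4505617, plus strand: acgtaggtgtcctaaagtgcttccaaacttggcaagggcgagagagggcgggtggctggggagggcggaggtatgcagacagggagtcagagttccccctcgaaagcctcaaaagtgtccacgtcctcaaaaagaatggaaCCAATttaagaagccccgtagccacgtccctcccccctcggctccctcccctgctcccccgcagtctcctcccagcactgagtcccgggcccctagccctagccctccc
Capitals mark matches to 4 motifs searched on both strands, the TATA box TATAAA, the CCAAT box CCAAT, the AP-1 site TGACTCA and the TEAD site GGAATG, and no matches overlapped in these sequences. Crispld2 has CCAAT starting 8 bases before its start, and Col1a2 has it 109 bases before. Col3a1 has TATAAA at 117 bases before its start and GGAATG on the other strand at 168, and Tnc has TATAAA at 126. The Postn window holds none of the 4. GC content was 63.2% in Crispld2 and 62% in Col1a2, against 35.2% in Col3a1, 40.4% in Postn and 44.8% in Tnc. Of the 32 genes with values, 21 had a promoter in the table: TATAAA was in 3 of them (13.0% of 27025 mouse promoters), CCAAT in 7 (34.5%), TGACTCA in 1, Col6a1 (4.43%), and GGAATG in 1, Col3a1 (12.6%). These matches describe the letters of the windows and are not evidence of binding.

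Signals below are the deposited linear intensities of 1 probe set per gene, so levels can be set against each other within a gene and not between genes. A signal at or under 24.5, the highest value of the bacterial Trpn control probe sets, is treated as not above background. Arrays are given as homozygous 1 and 2, heterozygous 1 and 2, and wild type 1 and 2. The replicate numbers only name the arrays.

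Among the fibrillar collagens, Col3a1, the type III collagen of extensible tissues, had signals of 255 and 31824 in homozygous cells, against 22825 and 24594 in heterozygous and 26026 and 23987 in wild-type cells. Homozygous array 2 was 125-fold above homozygous array 1, while the 4 other arrays lay close together. Col5a2, a chain of the type V collagen that sets fibril diameter, had 2057 and 13794 in homozygous cells, 14957 and 13278 in heterozygous and 13548 and 15209 in wild-type cells. Only homozygous array 1 stood apart, and array 2 was within the range of the other groups. Col3a1 and Col5a2 are neighbours on the chromosome with no protein-coding gene between them in the RefSeq order.

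Col1a1, the larger chain of type I collagen, had 491 and 6189 in homozygous cells, against 742 and 508 in heterozygous and 618 and 596 in wild-type cells. Here homozygous array 2 was the one that stood apart, above every other array, and array 1 was just below them. Col1a2, the partner chain of Col1a1, had 21105 and 32905 in homozygous cells, 5417 and 8309 in heterozygous and 20710 and 6965 in wild-type cells. Both homozygous arrays were the highest of the 6, but wild-type array 1 came close to homozygous array 1. The homozygous minus heterozygous difference of Col1a2 was 1.97 ± 0.59 (log2, limma standard error), with an adjusted p of 0.105. Col1a1 and Col1a2 encode chains of 1 trimer, yet their lowest arrays were not the same.

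Col5a1, the other type V chain, had 1906 and 1361 in homozygous cells, against 860 and 891 in heterozygous and 778 and 790 in wild-type cells. This was the tested fibrillar collagen with the closest pair of homozygous arrays, and none of its 3 groups overlapped. Its homozygous minus wild-type difference was 1.04 ± 0.25 (log2), with an adjusted p of 0.0850. Col11a1, a minor fibrillar chain of cartilage, had 1222 and 65.0 in homozygous cells, 79.6 and 21.6 in heterozygous and 31.9 and 148 in wild-type cells. It went the opposite way to Col3a1, with homozygous array 1 alone high, and 1 heterozygous array not above background. Col5a3 stayed at 15.6 and 25.3 in homozygous cells, 36.9 and 56.4 in heterozygous and 49.3 and 38.1 in wild-type cells, all near background.

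**Figure D1:**
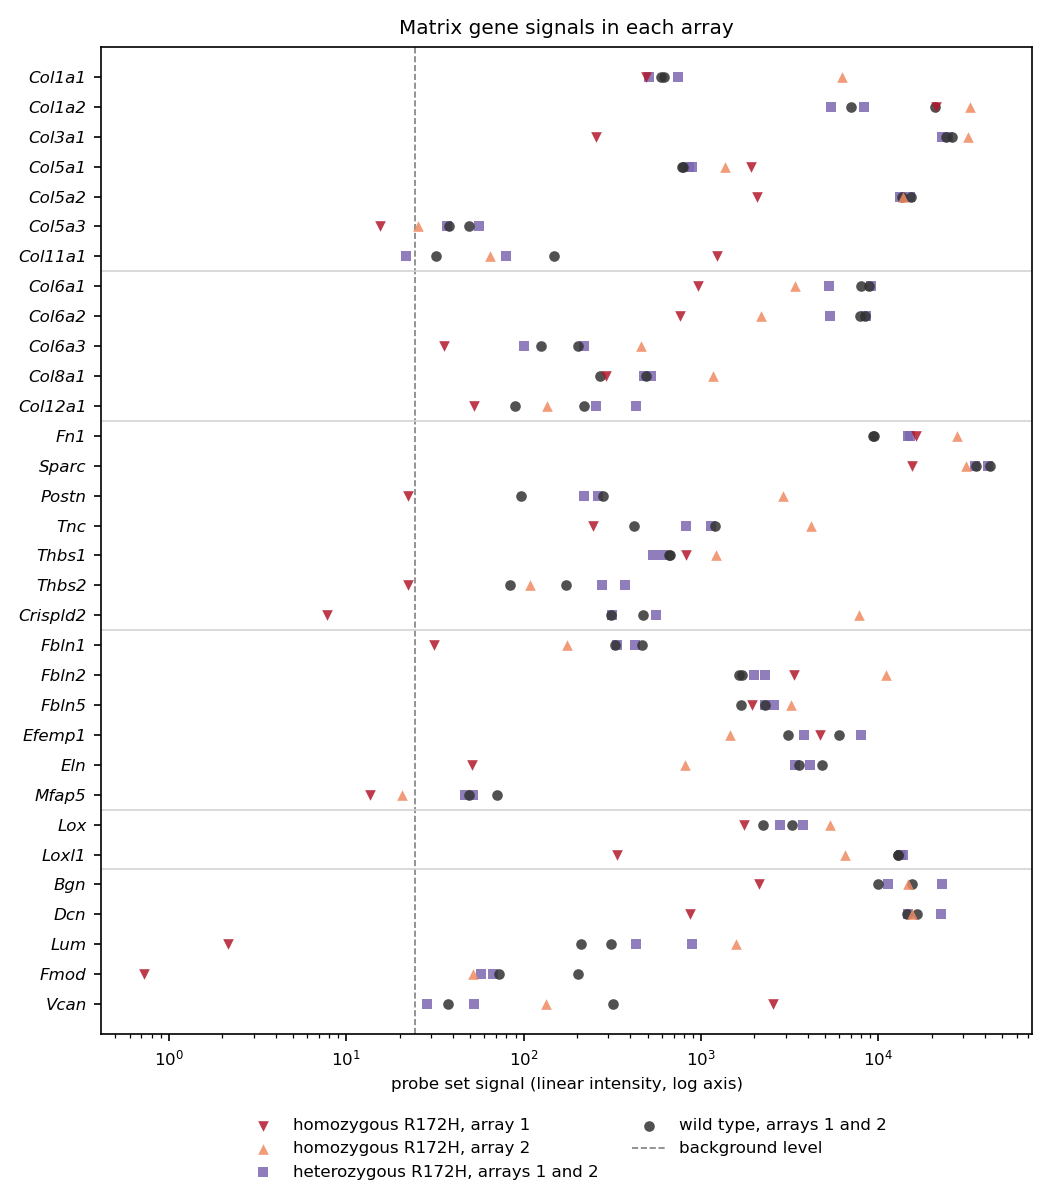
Signal of each of the 32 genes (log10 axis, linear deposited intensity) on the 6 arrays, with genes in rows grouped by role and 1 point per array, homozygous, heterozygous and wild type in separate colours. The 2 homozygous points lie far apart for Crispld2, Col3a1, Postn and Lum and close together for Col5a1 and Thbs1, and the dashed line is the background of 24.5.

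The collagens outside the fibrillar class include type VI, the beaded-filament collagen that anchors cells to the interstitial fibrils. Col6a2 had 759 and 2173 in homozygous cells, against 8456 and 5342 in heterozygous and 8439 and 7908 in wild-type cells. Col6a1 had 957 and 3395 in homozygous cells, 9038 and 5232 in heterozygous and 8869 and 7978 in wild-type cells. Both homozygous arrays were below the 4 others for each chain, with array 1 the lower, and the pair of genes are chromosomal neighbours. Col6a2 came nearest to the threshold of all 29 genes, at -2.67 ± 0.55 (log2, adjusted p 0.0669) for homozygous minus wild type and -2.39 ± 0.55 (adjusted p 0.0725) for homozygous minus heterozygous. Col6a1 had -2.22 ± 0.65 (adjusted p 0.109) for homozygous minus wild type.

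The third chain of the type VI trimer did not follow them. Col6a3 had 35.6 and 461 in homozygous cells, against 220 and 101 in heterozygous and 125 and 203 in wild-type cells. Its homozygous array 2 was the highest of the 6 arrays and array 1 the lowest. Col12a1, a fibril-associated collagen, had 52.6 and 135 in homozygous cells, 432 and 254 in heterozygous and 89.3 and 220 in wild-type cells, so that homozygous and heterozygous arrays did not overlap. Col8a1, a short-chain collagen of vessel walls, had 292 and 1171 in homozygous cells, 520 and 478 in heterozygous and 269 and 488 in wild-type cells, with homozygous array 2 alone above the rest.

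Of the adhesive and matricellular glycoproteins, Fn1, the fibronectin that cells assemble into fibrils through integrins, had 16292 and 27654 in homozygous cells, against 15145 and 14723 in heterozygous and 9376 and 9273 in wild-type cells. The groups did not overlap and followed the order homozygous, heterozygous, wild type. Fn1 differed by 1.19 ± 0.31 (log2, adjusted p 0.0940) between homozygous and wild-type cells, by 0.51 ± 0.31 (adjusted p 0.319) between homozygous and heterozygous cells, and by 0.68 ± 0.31 (adjusted p 1.00) between heterozygous and wild-type cells. The 3 errors are equal because the fit pools 1 spread per gene over the 3 groups. The log2 SD of Fn1 was 0.54 in the homozygous pair, 0.03 in the heterozygous and 0.01 in the wild-type pair. Along with Fn1, Col5a1 and Fbln2 had this order without overlap, a count added after the values were seen: 3 of the 29 genes against 2.36% of all tested genes, and 0 of the 29 had the opposite order (3.26%). Thbs1, a thrombospondin that binds matrix and growth factors, had 824 and 1217 in homozygous cells, 613 and 536 in heterozygous and 667 and 660 in wild-type cells.

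Crispld2, a secreted protein with a cysteine-rich domain, had the widest gap of all 32 genes. Its signals were 7.83 and 7801 in homozygous cells, against 314 and 555 in heterozygous and 472 and 312 in wild-type cells. Homozygous array 1 was not above background, which makes array 2 at least 318-fold higher than array 1. The difference of group means has no settled sign: homozygous minus wild type was -0.63 ± 3.09 (log2, adjusted p 0.907) on the signals as deposited and 0.19 ± 2.54 (adjusted p 0.967) for Crispld2 with signals raised to background.

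Postn, the periostin of collagen-rich stroma, had 22.2 and 2886 in homozygous cells, against 263 and 219 in heterozygous and 279 and 96.0 in wild-type cells, so array 2 was at least 118-fold above array 1. Tnc, the tenascin C of remodelling tissue, had 245 and 4191 in homozygous cells, 1132 and 823 in heterozygous and 421 and 1190 in wild-type cells. In both genes the 4 arrays of the other groups lay between the homozygous pair. Thbs2, the other thrombospondin, had 22.2 and 108 in homozygous cells, 277 and 372 in heterozygous and 83.7 and 173 in wild-type cells, with homozygous cells below heterozygous ones on every array. Sparc, a collagen-binding glycoprotein, had 15520 and 31270 in homozygous cells, 34870 and 41538 in heterozygous and 35619 and 42348 in wild-type cells. Both homozygous arrays were below the others for Sparc, array 2 by only a small margin, at -0.82 ± 0.39 (log2, adjusted p 0.229) for homozygous minus wild type.

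In the elastic fibre genes, Eln, the elastin precursor, had 51.3 and 814 in homozygous cells, against 4134 and 3374 in heterozygous and 4821 and 3570 in wild-type cells. Both homozygous arrays were far below the 4 others and were themselves 15.9-fold apart. The difference was -4.34 ± 1.26 (log2, adjusted p 0.108) against wild type and -4.19 ± 1.26 (adjusted p 0.104) against heterozygous cells. Mfap5, a microfibril glycoprotein, had 13.7 and 20.7 in homozygous cells, 51.9 and 46.4 in heterozygous and 70.5 and 49.4 in wild-type cells. Neither homozygous array was above background, so homozygous cells were at least 2.19-fold lower than the mean of the 4 other arrays.

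The fibulins, which bridge elastin, microfibrils and basement membranes, divided. Fbln2 had 3360 and 11013 in homozygous cells, against 2284 and 1990 in heterozygous and 1693 and 1626 in wild-type cells, and its homozygous minus wild-type difference was 1.87 ± 0.57 (log2, adjusted p 0.116). Fbln1 had 31.1 and 176 in homozygous cells, 338 and 425 in heterozygous and 463 and 326 in wild-type cells, a difference of -2.39 ± 0.82 (adjusted p 0.138). The homozygous arrays of Fbln2 were both above, and those of Fbln1 both below, the 4 others. Fbln5, needed for elastic fibre assembly in mice, had 1936 and 3232 in homozygous cells, 2567 and 2281 in heterozygous and 1671 and 2287 in wild-type cells. Efemp1, also called fibulin 3, had 4658 and 1458 in homozygous cells, 8010 and 3826 in heterozygous and 3070 and 6013 in wild-type cells, with homozygous array 2 the lowest of the 6 arrays.

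**Figure D2:**
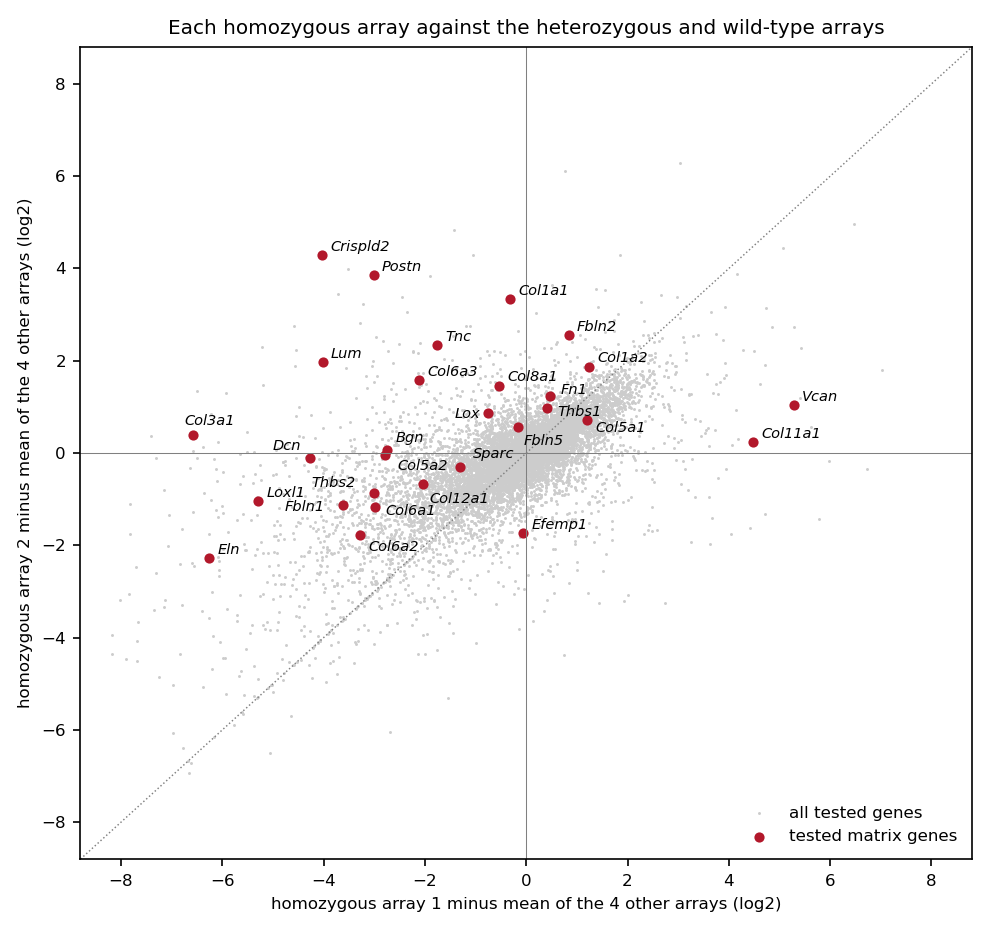
Difference of homozygous array 1 (horizontal) and homozygous array 2 (vertical) from the mean of the 4 heterozygous and wild-type arrays, in log2, for each tested gene (grey) and the 29 tested matrix genes (red, named). Most matrix genes lie above the dotted line of equal differences: 21 of the 29 were at least 2-fold higher in array 2 than in array 1, and Vcan, Col11a1 and Efemp1 lie well below it.

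Lysyl oxidases oxidise lysines of collagen and elastin, the step that precedes crosslinking. Loxl1, the family member tied to elastic fibres in mice, had 337 and 6436 in homozygous cells, against 13474 and 13718 in heterozygous and 12863 and 12836 in wild-type cells. The 4 arrays of the other groups lay close together, and homozygous array 1 was 39.2-fold and array 2 2.05-fold below their mean. Lox had 1739 and 5329 in homozygous cells, 2768 and 3747 in heterozygous and 3249 and 2224 in wild-type cells, with array 1 the lowest and array 2 the highest. The Loxl1 difference was -3.13 ± 1.33 (log2, adjusted p 0.194) for homozygous minus wild type.

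Of the small leucine-rich proteoglycans, which coat collagen fibrils, Dcn (decorin) had 865 and 15441 in homozygous cells, against 14575 and 22404 in heterozygous and 16386 and 14435 in wild-type cells. Bgn (biglycan) had 2114 and 14734 in homozygous cells, 11309 and 22798 in heterozygous and 15545 and 9945 in wild-type cells. In both genes homozygous array 1 alone was low. Lum (lumican), the chromosomal neighbour of Dcn, had 2.15 and 1566 in homozygous cells, 432 and 884 in heterozygous and 310 and 210 in wild-type cells. Lum in homozygous array 1 was not above background, so array 2 was at least 63.9-fold higher. Fmod (fibromodulin) had 0.72 and 52.1 in homozygous cells, 67.5 and 57.4 in heterozygous and 202 and 72.9 in wild-type cells, with array 1 again not above background.

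Vcan, the large hyaluronan-binding proteoglycan versican, went the other way. Its signals were 2528 and 134 in homozygous cells, against 52.2 and 28.5 in heterozygous and 320 and 37.6 in wild-type cells. Homozygous array 1 was 18.9-fold above array 2, and array 2 was below wild-type array 1. The homozygous minus heterozygous difference was 3.91 ± 1.65 (log2, adjusted p 0.183).

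By role, over the 32 genes with values and with signals under background set to 24.5, the median difference of homozygous array 1 from the mean of the 4 other arrays was -3.03 (log2) for the 2 lysyl oxidases, -2.74 for the 5 proteoglycans and -2.12 for the 5 other collagens. It was -1.76 for the 7 glycoproteins, -0.65 for the 6 elastic fibre genes and fibulins, and -0.31 for the 7 fibrillar collagens. Over the 6 tested fibrillar collagens alone, without the dim Col5a3, it was 0.44, so that role has no settled sign. In homozygous array 2 the medians were -0.09 for the lysyl oxidases, 0.06 for the proteoglycans, -0.67 for the other collagens, 1.23 for the glycoproteins, -1.13 for the elastic fibre genes and fibulins and 0.39 for the fibrillar collagens. In array 2 the glycoproteins had the highest median and the elastic fibre genes and fibulins the lowest. Over all 29 genes, the median was -2.03 in array 1 and 0.57 in array 2, against -0.12 and -0.04 over all tested genes. Homozygous array 1 was at least 2-fold below the mean of the 4 others in 17 of the 29 (23% of all tested genes) and at least 2-fold above it in 4 (12.8%). Homozygous array 2 was at least 2-fold above that mean in 11 (8.13%) and at least 2-fold below it in 6 (14.2%).

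The gap between the homozygous arrays can be set beside the gap within the other groups. The median absolute gap over the 29 genes was 2.50 (log2) between the homozygous arrays, 0.44 between the heterozygous arrays and 0.50 between the wild-type arrays. Over all tested genes the same medians were 0.42, 0.29 and 0.30. A gap of at least 2-fold was found in 24 of the 29 genes for homozygous cells (20.1% of all tested genes), in 5 for heterozygous cells (7% of all tested genes) and in 7 for wild-type cells (8.68%).

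The group comparisons asked whether matrix genes differed with the p53 genotype. In limma, at a Benjamini-Hochberg adjusted p under 0.05 over all 10916 genes, 0 of the 29 were called for homozygous minus wild type, where 2.67% of all tested genes were called (0.412% higher and 2.25% lower). For homozygous minus heterozygous, 0 of the 29 were called against 4.09% of all tested genes (0.87% higher and 3.22% lower), and for heterozygous minus wild type 0 of the 29 against 0%. At an unadjusted p under 0.05 there were 7 genes for homozygous minus wild type (3 higher and 4 lower, against 28.9% of all tested genes), 10 for homozygous minus heterozygous (4 higher and 6 lower, 30.6%) and 0 for heterozygous minus wild type (0.65%). Both homozygous counts were near the share of all tested genes. The smallest adjusted p for any of the 29 was that of Col6a2.

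The median log2 difference of the 29 was -0.63 for homozygous minus wild type and -0.76 for homozygous minus heterozygous, against -0.09 and -0.08 over all tested genes. Both medians fall on Crispld2, whose signal in homozygous array 1 was under background, and with signals raised to background they were -0.32 and -0.22. For heterozygous minus wild type it was 0.12, against 0.00. These comparisons share samples, and the homozygous means average the unlike arrays described above. With homozygous array 1 left out, which leaves a single homozygous array whose spread is assumed to be that of the other groups, 8 of the 29 were called for homozygous minus wild type (6.17% of all tested genes) and the median was 0.35. The 6 higher (1.15% of all tested genes) were Col1a1, Fbln2, Crispld2, Postn, Fn1 and Lum, and the 2 lower (5.02%) were Eln and Col6a2. For homozygous minus heterozygous, 5 were called (6.67%), with 4 higher (Col1a1, Crispld2, Fbln2 and Postn, 1.2%) and 1 lower (Eln, 5.47%).

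With homozygous array 2 left out instead, 18 of the 29 were called (24.4% of all tested genes) and the median was -1.53. Of these, 3 were higher (Col11a1, Vcan and Col5a1, 7%) and 15 lower (17.4%), among them Col3a1 at -6.62 ± 0.28 (log2, adjusted p 0.000212). For homozygous minus heterozygous, 19 were called (26%), with the same 3 genes higher (7.54%) and 16 lower (18.5%). Crispld2, Postn and Lum were called against wild type in both fits with opposite signs. With array 2 alone, Crispld2 differed from wild type by 4.35 ± 0.46 (log2, adjusted p 0.00942). With array 1 alone the signals of these 3 genes and of Thbs2 were under background, so only bounds can be given: array 1 was at least 15.6-fold below the wild-type mean for Crispld2, 10.4-fold for Lum, 6.68-fold for Postn and 4.90-fold for Thbs2. Eln and Col6a2 were called lower in both, Eln at -2.35 with array 2 alone and at -6.34 with array 1 alone. The assumed spread was not the measured one, since the homozygous pair had an SD of 1.30 (log2) of its difference over all tested genes, against 0.55 for the heterozygous and 0.60 for the wild-type pair.

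Groups that did not overlap were counted as well. For homozygous against wild type, 5 of the 29 were higher without overlap (27.4% of all tested genes) and 6 were lower (33.8%). For homozygous against heterozygous, 6 were higher (28.2%) and 8 lower (34.2%). These counts were below the share of all tested genes. For heterozygous against wild type, 7 were higher (13.2%), namely Col5a1, Col12a1, Fn1, Thbs2, Fbln2, Loxl1 and Lum, and 1, Thbs1, was lower (12.8%). None of these 8 passed the adjusted threshold.

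**Figure D3:**
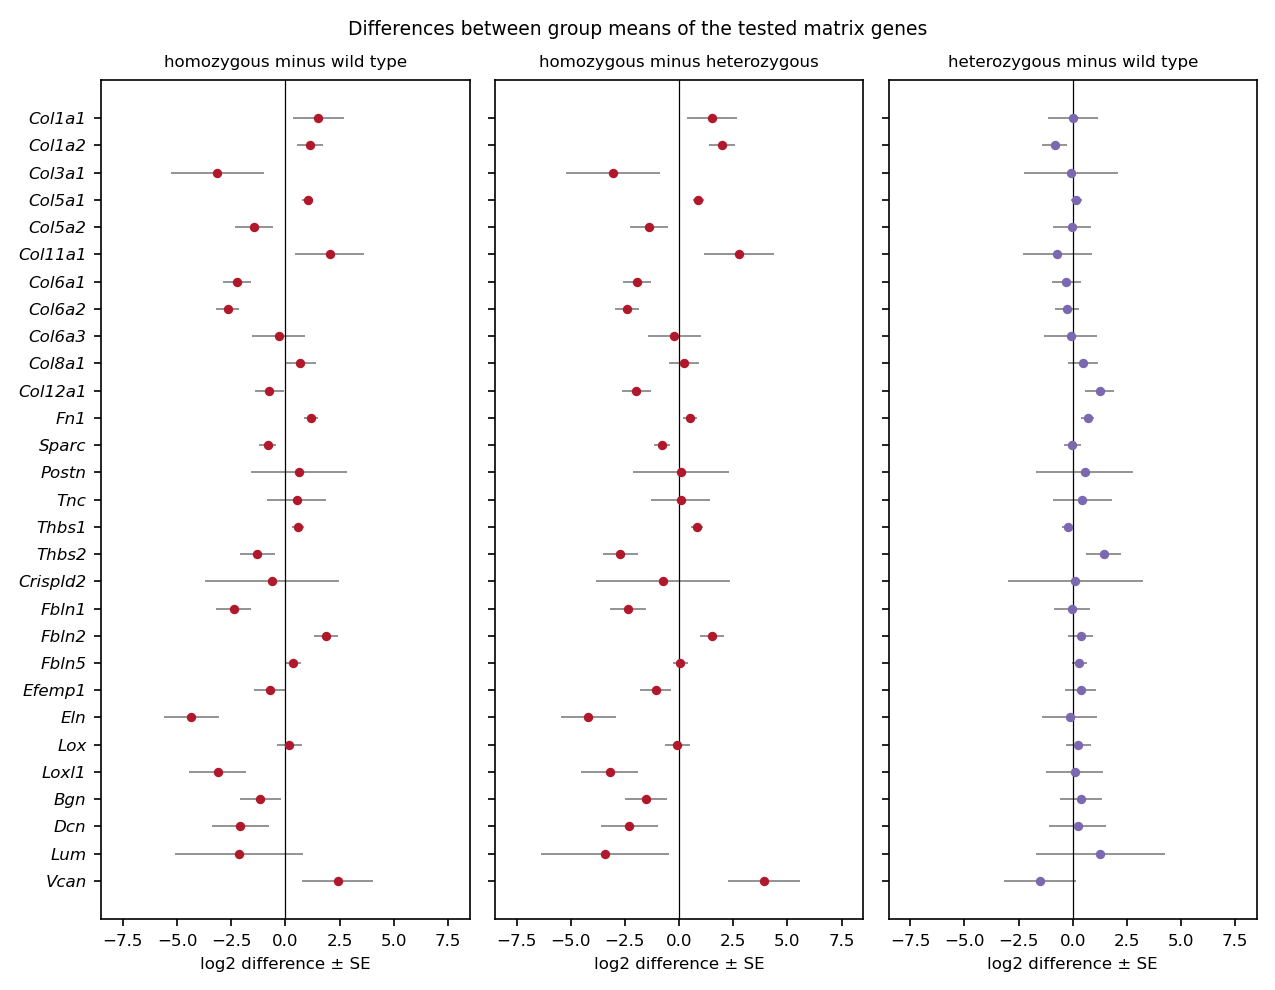
Log2 differences of the 29 tested genes in 3 panels, homozygous minus wild type at the left, homozygous minus heterozygous in the middle and heterozygous minus wild type at the right. Points are differences of means over 2 arrays each and lines are limma standard errors, with genes in rows. Each gene has the same error in all 3 panels, as its spread is pooled over the 3 groups. Errors are widest for Crispld2 and Lum, whose homozygous arrays differ most, and heterozygous minus wild-type values stay nearest to 0.

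Other genes of the collagen pathway were taken from lists. Of 24 tested genes of collagen synthesis and processing, 0 were called in any of the 3 comparisons, and 8, 8 and 0 had an unadjusted p under 0.05 when homozygous cells were set against wild type, homozygous against heterozygous, and heterozygous against wild type. The medians of the list were -0.10, -0.21 and 0.01 (log2) in those comparisons. At least 2-fold more signal in homozygous array 2 than in array 1 was found in 6 of these 24, and the reverse in 2. Serpinh1, the collagen chaperone, had 10461 and 18054 in homozygous cells, against 18021 and 15016 in heterozygous and 14178 and 19811 in wild-type cells. Ppib, a procollagen prolyl isomerase, had 10408 and 11196 in homozygous cells, 13286 and 13392 in heterozygous and 11293 and 14296 in wild-type cells. Pcolce, the enhancer of procollagen C-terminal trimming, had 8211 and 11130 in homozygous cells, 19256 and 17622 in heterozygous and 16400 and 19885 in wild-type cells, with both homozygous arrays below the others. P4hb, the protein disulphide isomerase subunit of prolyl hydroxylase, had 16684 and 14539 in homozygous cells, 14556 and 15813 in heterozygous and 12897 and 17593 in wild-type cells, with no array apart. The median of the signed difference, homozygous array 2 minus array 1, was 0.46 (log2) over this list and 2.00 over the 29 matrix genes. Opposite differences cancel in such a median, so it does not measure the width of the gap. The difference between the lists was not tested.

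Among 22 tested matrix structural genes outside the 34, 1 was called for homozygous minus wild type. Prelp, a leucine-rich proteoglycan and the neighbour of Fmod, fell by 2.63 ± 0.40 on the log2 scale (adjusted p 0.0450), with 33.6 and 28.3 in homozygous cells, 123 and 119 in heterozygous and 279 and 131 in wild-type cells. In that list 14 of the 22 were at least 2-fold higher in homozygous array 2 than in array 1, and 4 the reverse. Among 12 tested matrix receptors, Ddr2, a receptor tyrosine kinase for fibrillar collagen, rose by 2.64 ± 0.24 (log2, adjusted p 0.0177) against wild type and by 2.32 ± 0.24 (adjusted p 0.0226) against heterozygous cells. Ddr2 had 1203 and 1328 in homozygous cells, 220 and 290 in heterozygous and 198 and 207 in wild-type cells. The 2 homozygous arrays were close for Ddr2, unlike those of Col1a1 and Col3a1. The Prelp call held in 4 of 14 settings of the fit, the reported one included (adjusted p 0.0186 to 0.202), and the Ddr2 call against wild type in 8 of 16 (0.00405 to 0.185). Both were lost with the replicate block (Prelp 0.0793, Ddr2 0.0591) and whenever 1 heterozygous or wild-type array was left out. For homozygous minus wild type those settings called no gene at all, so the losses are not particular to Prelp and Ddr2.

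**Figure D4:**
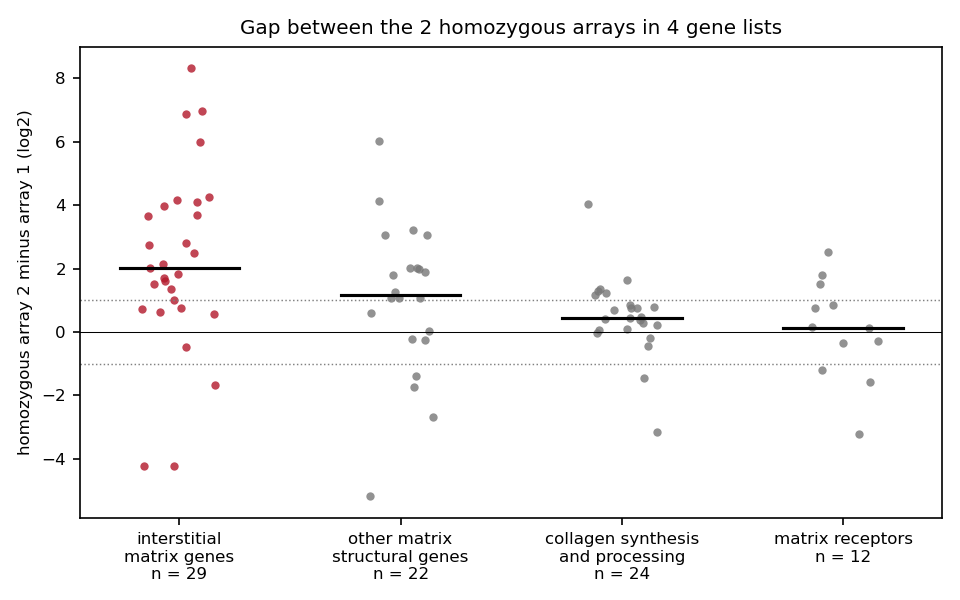
Homozygous array 2 minus homozygous array 1 (log2) for each tested gene of the matrix genes and of the other gene lists, 1 point per gene, with a bar at each list's median. The 29 matrix genes have a median of 2.00, and other matrix structural genes 1.17. Collagen synthesis and processing has 0.46 and matrix receptors 0.13. Opposite differences cancel in these medians: 3 of the 12 receptors were at least 2-fold higher in array 2 and 3 in array 1.

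Marker lists of the cell types such a culture could hold were read beside these results. The 16 markers of ovarian surface epithelium and mesothelium summed to 60432 and 77374 in homozygous cells, against 155916 to 195948 in heterozygous and 176262 to 217828 in wild-type cells, and 3 of the 16 (Lhx9, Epcam and Upk1b) fell against both other groups. Of all tested genes, 2.25% were called lower against wild type and 3.22% against heterozygous cells. In homozygous array 1, 2 of the 16 were not above background, and in array 2, 1. Krt18 gave 25436 of the sum of homozygous array 1, where it was the highest of the 6 arrays. Its other signals were 5623 in homozygous array 2, 11707 and 6729 in heterozygous and 6247 and 12233 in wild-type cells. The fibroblast markers, 13 with values, summed to 4114 and 11404 in homozygous cells, against 6753 to 7142 in heterozygous and 6281 to 6302 in wild-type cells. The 10 smooth muscle and pericyte markers summed to 11897 and 47158 in homozygous cells, against 31407 to 33911 in heterozygous and 21386 to 33945 in wild-type cells. Pdgfra fell among 7 tested fibroblast markers, against both other groups. S100a4 and Nr2f2 were not called and had both homozygous arrays above the 4 others. S100a4 had 2726 and 2643 against 938 to 1819, and Nr2f2 had 825 and 1183 against 524 to 740. Thy1 and Cd34, also not called, had both below the 4 others, as Pdgfra did. Of 6 tested smooth muscle markers 0 were called (1 and 0 at an unadjusted p under 0.05 against wild type and heterozygous). Sums of signals weight bright probe sets most. Both the fibroblast and the smooth muscle sums had homozygous array 1 lowest and array 2 highest. But Tcf21 gave 7011 of the fibroblast sum of array 2. Without it the fibroblast sums were 3865 and 4393 in homozygous cells, against 4230 to 4464 in heterozygous and 4297 to 4485 in wild-type cells.

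The 14 macrophage markers summed to 539 and 721 in homozygous cells, against 5816 to 5836 in heterozygous and 2711 to 3351 in wild-type cells, and the 11 endothelial markers to 2376 and 2779 in homozygous cells, against 9152 to 10468 in heterozygous and 10508 to 10957 in wild-type cells. Of 9 tested macrophage markers, 3 fell against wild type (Lyz2, Mpeg1 and Ctss) and 4 against heterozygous cells (these and Fcer1g). All 3 tested endothelial markers (Icam2, Kdr and Esam) fell against each. Of all tested genes, 2.25% were called lower against wild type and 3.22% against heterozygous cells. Lyz2, Ctss and Icam2 were under background in both homozygous arrays, so they passed the filter only through the other groups. In homozygous array 1, 7 of the 14 macrophage markers were not above background, and in array 2, 10. Cd14 gave 222 of the sum of homozygous array 1, where it was the highest of the 6 arrays. Its other signals were 6.28 in homozygous array 2, 128 and 112 in heterozygous and 70.4 and 45.8 in wild-type cells. Of the 11 endothelial markers, 7 and 8 were not above background in homozygous cells. In heterozygous cells 7 and 4 were not, and in wild-type cells 5 and 4. Flt1, too dim to be tested, had 446 and 11.1 in homozygous cells, 40.2 and 39.3 in heterozygous and 19.0 and 8.01 in wild-type cells. It went the other way in homozygous array 1 alone. The 11 granulosa and theca markers summed to 754 and 6959 in homozygous cells, 5715 to 7317 in heterozygous and 7128 to 10531 in wild-type cells. Fst of the 7 tested fell against heterozygous cells. Inhbb gave 3662 and Inhba 1247 of the sum of homozygous array 2, and each was highest of the 6 arrays there. Star, Inha, Fst and Nr5a1 had both homozygous arrays below the 4 others, and Foxl2 had array 1 alone below them. Blood and lymphocyte markers, 5 with values, summed to 454 and 394 in homozygous cells, against 346 to 605 in heterozygous and 465 to 500 in wild-type cells, with 0 of 2 tested called at either threshold. No marker call held in every setting of the fit. The part of these cell types in the matrix results was not tested. As a sign of RNA quality, beta-actin control probe sets had a 3′ signal above the 5′ one by 0.59 and 0.39 (log2) in homozygous cells, below the 0.66 to 0.96 of the 4 other arrays. The same 3′ minus 5′ value for Gapdh was -0.18 and -0.12 in homozygous cells, against -0.13 to 0.01 on the others. The part of RNA quality was not tested.

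Several probe sets served 27 of the 32 genes. Of 19 genes with more than 1 probe set above the filter, 15 had the same sign of array 2 minus array 1 in all of them, the exceptions being Col5a1, Col12a1, Fbln1 and Eln. The sign of homozygous minus wild type was the same in 18, the exception being Crispld2, whose probe sets ran from -1.68 to 2.24 (log2). Only 1 of the 8 probe sets of Vcan was above the filter. With the mean of all probe sets, Vcan was not among the genes at least 2-fold higher in homozygous array 1 than in array 2.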

How the data were processed

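The deposited values are linear intensities of 45101 Affymetrix probe sets. The submitters' processing notes name RMA, but each array has a trimmed mean of 500, the form of MAS 5.0 signal; the design had assumed RMA values. Log2 was taken with no offset or further normalization. Names came from the platform annotation, updated by Entrez identifier (34754 matched); 34958 probe sets named 1 symbol, 932 several and 9211 none, and the last 2 kinds were not used. Genes at or above the 40th percentile of mean log2 signal, 60.2 in signal, were tested.

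A limma fit (3.58.1, R 4.3.3) of 3 group means over all 6 arrays gave differences, standard errors and Benjamini-Hochberg adjusted p-values. It was tested on simulated data. The number of arrays limits the precision. A fold against a signal under 24.5 is a lower bound computed against 24.5. The members and lists were chosen with earlier results of these data known. Named genes were all members, with up to 4 genes of each other list, those called or else those with the highest mean signal. No gene of the smooth muscle or blood lists, which had no call, was named. Flt1, Krt18, S100a4, Nr2f2, Thy1, Cd34, Cd14, Inhbb, Inhba, Star, Inha, Nr5a1 and Foxl2 were added by name once their values had been seen. So were the genes of the last section. The pairing of replicate numbers was checked by correlating the replicate differences of groups, which gave 0.155, -0.0997 and -0.303, so the numbers were not taken to pair samples. Alternatives were other normalizations, filters, probe set rules, array weights and leaving out each array. The transcript of the mutated gene was not analysed here.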

Additional observations from a re-analysis of the deposited data

How the results depend on the processing

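The medians of the matrix genes in the homozygous comparisons moved most when array 1 or array 2 of the homozygous group was left out. Leaving out 1 array at a time gave a median from -1.53 to 0.35 (log2) for homozygous minus wild type. For homozygous minus heterozygous it ran from -2.07 to 0.64. The ends came from leaving out a homozygous array, which leaves a lone array assumed to vary like the other groups: without array 1, 8 and 5 genes were called, and without array 2, 18 and 19. Leaving out a heterozygous or wild-type array gave medians from -0.67 to -0.14 for homozygous minus wild type. For homozygous minus heterozygous they ran from -0.76 to -0.55. Calls in those fits cannot show whether the matrix genes depend on the array left out, since almost no gene of any kind was called. With the filter raised to the 60th percentile, 20 of the genes were tested and 1, Col6a2, was called lower for homozygous minus wild type at -2.67 (log2, adjusted p 0.0481). In that fit 431 of all 7278 tested genes (5.92%) were called. Counts by array place were repeated by choice after seeing the data. At that filter, homozygous array 1 was below and array 2 above the 4 other arrays in 4 genes, against 8, and array 1 was at least 2-fold above array 2 in 1, against 3. In both counts at that filter, fewer genes were tested. The count of 8 was 7 with quantile normalization or median centring, both without Col1a1. With the mean of all probe sets it was 9 of 27 tested genes: Col1a1 and Lox left, and Col8a1, Fbln5 and Dcn entered. Shares of all tested genes are not given for the place counts at these settings.

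With quantile normalization, median centring, no filter, the mean of all probe sets, signals raised to background, only the 2 groups compared or weights per group, 0 matrix genes were called in each comparison. The replicate block also gave 0 in each. Median centring moved the median of all tested genes to 0.22 for homozygous minus wild type and 0.14 for homozygous minus heterozygous. Over all genes, the calls for homozygous minus wild type were 291 as reported, 0 with no filter, with only the 2 groups or with the replicate block, and 605 with signals raised to background. For homozygous minus heterozygous they were 446 as reported, 17 with no filter, 9 with only the 2 groups, 19 with the replicate block and 731 with signals raised to background. Counts by place could not be given without a homozygous array. Log2 values of signals near background spread widely, which limits the dim genes.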

Other observations

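Genes outside the 34, named after their values were seen, had the same contrast between the homozygous arrays. Ogn (osteoglycin), a small proteoglycan, had 62.2 and 4037 in homozygous cells, against 3060 and 10596 in heterozygous and 5161 and 2320 in wild-type cells. Mfap2, a microfibril glycoprotein, had 8.14 and 431 in homozygous cells, 145 and 174 in heterozygous and 212 and 98.6 in wild-type cells. Creb3l1, a transcription factor of the secretory pathway that acts on type I collagen genes, had 45.5 and 752 in homozygous cells, 448 and 317 in heterozygous and 286 and 484 in wild-type cells. Tcf21, a transcription factor of mesenchymal cells, had 248 and 7011 in homozygous cells, 2289 and 2912 in heterozygous and 1795 and 2005 in wild-type cells. In each, homozygous array 1 was the lowest of the 6, and array 2 was the highest except for Ogn.

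The opposite contrast, seen in Vcan and Col11a1, was also found elsewhere. Col18a1, a basement membrane collagen, had 1238 and 34.1 in homozygous cells, against 166 and 150 in heterozygous and 82.5 and 140 in wild-type cells. Pcolce2, a procollagen processing enhancer, had 2712 and 305 in homozygous cells, 76.1 and 21.1 in heterozygous and 163 and 51.5 in wild-type cells. Itgb3, the beta chain of the vitronectin receptor, had 595 and 63.8 in homozygous cells, 47.4 and 7.84 in heterozygous and 62.5 and 57.8 in wild-type cells. Homozygous array 1 was the highest of the 6 for all of these. No test can be made of 1 array against another.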
